A study of Rattus norvegicus with 224 samples.

Results

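Chaperone and heat shock genes were followed in rat aortic smooth muscle cells (RASMC), primary cells explanted from newborn rat aortas and carried through several passages, whose RNA was compared on 224 two-channel arrays. The genes were chosen by symbol alone: symbols that begin with Hspa, Hspb, Hspd, Hspe, Hsph, Hsp90, Dnaj, Cct or Bag in the platform annotation, with Ahsa1, Stip1 and Tcp1, and without Hsp90b1 and Hspg2, each by its first probe. This gave 54 genes (62 probes) of the 6502 genes named among 11575 probes. The choice rests on names, so the set was not wholly cytosolic: 8 genes code for proteins of the endoplasmic reticulum (ER) and 5 for mitochondrial proteins. The others were 4 genes of the HSP90 system, 5 of the HSP70 and HSP110 family and 5 HSP70 exchange factors. Another 5 were subunits of the chaperonin CCT, 4 were small heat shock proteins and 16 were other J-domain proteins. Hspb9 and Hspbap1 were grouped apart, although Hspb9 is by name a small heat shock protein, so counts of that role leave it out. The rule would also have taken Hsf1 and Hspb1, but no probe had either as its single symbol.

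All cells had been held in low serum, then given 100 nM insulin or its saline vehicle, in medium with 5 or 25 mM glucose. They received rapamycin at 0.01, 1 or 100 ng/mL, paclitaxel at 0.01, 1 or 1000 ng/mL, or the solvent DMSO alone, for 6 or 24 h. Each of the 56 groups had 1 array in each of 4 replicate runs, A to D, so a drug and dose had 16 arrays at each hour. The sources used here do not say that runs were separate cultures or animals, so p-values measure the spread between these arrays, which may be technical. A score is the authors' standardized ratio of cells to a pooled pup reference, in SDs of its array, and a difference of 1 is 1 such SD.

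Molecular chaperones bind unfolded or newly made proteins and help them reach their folded state. HSP70 and its J-domain partners take up exposed hydrophobic stretches and use ATP to release them, HSP90 with co-chaperones such as Ahsa1 and Stip1 completes the folding of kinases and receptors, and CCT folds actin and tubulin inside a closed chamber. The transcription factor Hsf1 induces many of these genes through heat shock elements, inverted repeats of the unit GAA, whereas ER chaperones are induced through the ER stress response element when unfolded protein builds up in that compartment. Rapamycin, with the protein FKBP12, inhibits the kinase complex mTORC1, which drives protein synthesis, and paclitaxel stabilises microtubules. Both drugs are used on coronary stents to limit growth of smooth muscle.

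Promoter windows of 300 bases, from 250 before to 50 after the annotated start, were found in RefSeq (build GRCr8) for 46 of the 54 genes. Both strands were searched for a heat shock element of 3 units (GAANNTTCNNGAA or TTCNNGAANNTTC) and of 2 units (GAANNTTC). The 2-unit form lies inside every match of the 3-unit form. The ER stress response element was searched for by its letters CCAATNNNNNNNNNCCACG. Of all 27457 promoter windows, 0.736% held the 3-unit form, as did 5 of the 46, those of Dnaja1, Hspa8, Hspd1, Hspe1 and Hsph1. The 2-unit form was in 8.34% of all windows and in 12 of the 46, which include the 5 with the 3-unit form. The ER stress response element was in 0.0765% of all windows and in 2 of the 46, Dnajc3 and Hspa5. The windows shown belong to 3 genes that were lower under rapamycin and hold the 3-unit heat shock element, and to 2 ER genes that differed with glucose. Capitals mark the motif matches, including overlapping ones.
Hspe1 (chr9:64084077-64084376, plus strand): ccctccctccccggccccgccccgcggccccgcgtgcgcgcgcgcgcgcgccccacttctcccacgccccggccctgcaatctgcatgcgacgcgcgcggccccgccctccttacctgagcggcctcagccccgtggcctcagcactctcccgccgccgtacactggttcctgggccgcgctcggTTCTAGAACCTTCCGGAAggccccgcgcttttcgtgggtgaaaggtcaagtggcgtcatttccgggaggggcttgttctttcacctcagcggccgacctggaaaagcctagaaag
Hsph1 (chr12:10427118-10427417, plus strand): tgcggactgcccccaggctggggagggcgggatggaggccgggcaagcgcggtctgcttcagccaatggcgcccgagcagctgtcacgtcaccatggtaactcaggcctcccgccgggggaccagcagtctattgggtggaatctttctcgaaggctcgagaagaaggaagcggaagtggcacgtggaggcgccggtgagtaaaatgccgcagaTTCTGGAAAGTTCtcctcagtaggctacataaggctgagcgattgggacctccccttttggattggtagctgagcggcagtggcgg
Hspa8 (chr8:50080264-50080563, plus strand): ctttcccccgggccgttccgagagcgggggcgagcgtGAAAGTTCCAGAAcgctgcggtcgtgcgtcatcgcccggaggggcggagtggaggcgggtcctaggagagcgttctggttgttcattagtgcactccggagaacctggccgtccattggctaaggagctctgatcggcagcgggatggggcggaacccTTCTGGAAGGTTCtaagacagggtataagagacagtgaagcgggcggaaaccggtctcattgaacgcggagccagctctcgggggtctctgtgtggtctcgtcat
Hspa5 (chr3:38452766-38453065, plus strand): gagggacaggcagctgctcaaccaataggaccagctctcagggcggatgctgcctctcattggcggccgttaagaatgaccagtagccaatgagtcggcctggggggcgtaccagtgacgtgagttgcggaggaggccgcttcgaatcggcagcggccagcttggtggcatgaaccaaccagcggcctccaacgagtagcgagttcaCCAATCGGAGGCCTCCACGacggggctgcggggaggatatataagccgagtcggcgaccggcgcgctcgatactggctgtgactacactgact
Dnajc3 (chr15:102432417-102432716, plus strand): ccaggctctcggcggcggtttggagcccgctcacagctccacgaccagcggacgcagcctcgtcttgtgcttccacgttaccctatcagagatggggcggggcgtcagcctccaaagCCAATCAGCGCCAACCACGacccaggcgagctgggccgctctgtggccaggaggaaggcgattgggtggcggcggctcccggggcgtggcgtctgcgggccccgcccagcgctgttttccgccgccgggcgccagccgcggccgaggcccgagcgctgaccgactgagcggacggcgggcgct
The Hspe1 match spans bases 186 to 203 of its window. Hspd1 lies beside Hspe1 on the opposite strand, and their windows share 211 bases that include this match. A match is a run of letters and not a measured binding site.

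Scores over the 11575 probes had a mean of 0 and an SD of 1 in each array, and array medians lay between -0.099 and 0.094. Feature means over all arrays lay between -0.207 and 0.217, so scores show differences between arrays and not whether a gene was expressed; for this reason the presence of the labelled cell type could not be read from marker levels. Correlations between arrays reached -0.526, and 1.46% of array pairs were under -0.3; the labels give Cyanine-5 for the cells, so a higher score is taken as more RNA in the cells, and all signs would turn together if the ratio ran the other way. One pair of run A arrays, insulin and vehicle with rapamycin 0.01 ng/mL at 25 mM glucose and 6 h, correlated at 0.99993, with 99.4% of scores within 0.01 of each other, so 1 may stand for both. Leaving out the vehicle array kept all 44 calls described here for members. Among comparisons with called members, only those of insulin and glucose at 6 h include that array, so the other calls could hardly change.

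Rapamycin at 100 ng/mL for 6 h went with lower scores of 8 of the 54 genes and higher scores of 2, in limma with Benjamini-Hochberg adjustment over all probes, called at an adjusted p under 0.05. In this comparison 2.18% of all probes were called lower and 2.9% higher. The lower genes came from 4 roles: 3 of 4 genes of the HSP90 system, 2 of 5 of the HSP70 and HSP110 family, 2 of 5 CCT subunits and 1 of 5 mitochondrial chaperones. None of the 5 exchange factors, 4 small heat shock proteins or 16 other J-domain proteins was called, and Dnajb1, a stress-inducible HSP40, had 0.172 ± 0.331 and -0.481 ± 0.229 at its 2 probes. In RNA from whole dishes, fewer cells of a type and less RNA per cell cannot be told apart. The median difference over the 54 genes was -0.197 against -0.0221 over all probes, with 35 of 54 below 0. Leaving out run A left 3 calls, and leaving out run B, C or D left 5 each. With the 4 run means as the unit in place of single arrays, the calls of Ahsa1, Dnajb9 and Hspe1 were kept and the other 7 were lost.

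**Figure D1:**
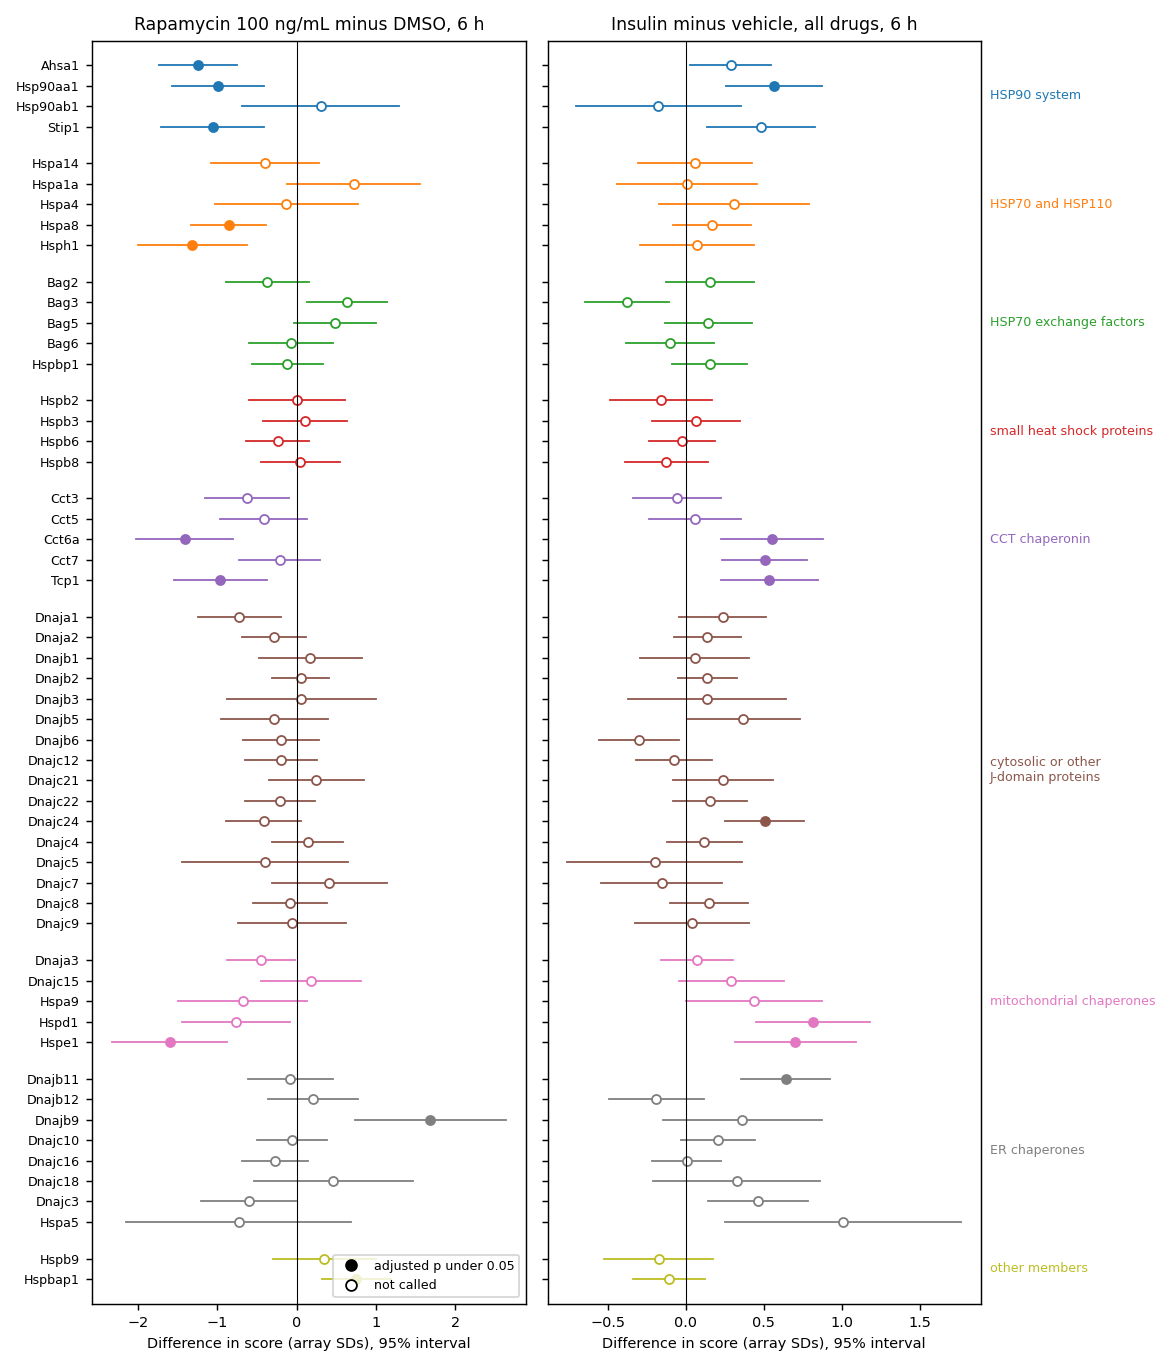
Difference in score (x axis, array SDs, with 95% interval) of each of the 54 genes, grouped by role, for rapamycin 100 ng/mL against DMSO (left) and insulin against vehicle over all drugs (right), both at 6 h. Filled points passed an adjusted p under 0.05: 8 lower and 2 higher on the left, 8 higher on the right.

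In the HSP90 system, Ahsa1, which stimulates the ATPase of HSP90, scored from -0.714 to 1.26 (median 0.31) in the 16 DMSO arrays and from -2.18 to 0.044 (median -1.05) in the 16 arrays of rapamycin 100 ng/mL. All 16 rapamycin arrays lay below the DMSO median and 10 below every DMSO array, although the groups overlapped. The difference was -1.24 ± 0.248 (SE, adjusted p = 0.00026), with run values from -1.83 to -0.825. The other Ahsa1 probe gave -0.816 ± 0.299 (adjusted p = 0.0975). Stip1, which bridges HSP70 and HSP90, scored from -1.2 to 2.52 (median 0.305) in DMSO and from -1.41 to 0.307 (median -0.502) under rapamycin. Its difference was -1.06 ± 0.327 (adjusted p = 0.0348). Hsp90aa1, the inducible cytosolic HSP90, scored from -1.43 to 2.48 (median 0.787) in DMSO and from -2.03 to 0.573 (median -0.399) under rapamycin, where all 16 arrays were below the DMSO median. It fell by 0.988 ± 0.294 (adjusted p = 0.0274). The constitutive paralogue Hsp90ab1 was not called, with differences of 0.302 ± 0.503 and -0.189 ± 0.333 at its 2 probes.

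Among the HSP70 and HSP110 genes, Hsph1, an HSP110 that exchanges nucleotide on HSP70, scored from -0.958 to 1.4 (median 0.273) in DMSO and from -3.46 to -0.134 (median -0.962) under rapamycin 100 ng/mL. All 16 rapamycin arrays lay below the DMSO median, and 8 below every DMSO array. The difference was -1.32 ± 0.347 (adjusted p = 0.00951), below 0 in 4 of 4 runs. Hspa8, the constitutive cytosolic HSP70, scored from -0.64 to 2.12 (median 0.62) in DMSO and from -1.92 to 1.06 (median -0.241) under rapamycin. It fell by 0.858 ± 0.239 (adjusted p = 0.016), but only in 3 of 4 runs: run A gave -1.81, B -1.11, C -0.77 and D 0.255. The stress-inducible Hspa1a was not called, with a difference of 0.718 ± 0.426 (adjusted p = 0.424). Probes of Hspa1a cannot be assumed to tell it from its near-identical neighbour Hspa1b.

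Both called CCT subunits, Cct6a and Tcp1, were lower, and the other 3 measured subunits had differences of -0.628 (Cct3), -0.417 (Cct5) and -0.214 (Cct7) that were not called. Cct6a scored from -0.596 to 2.99 (median 0.381) in DMSO and from -2.24 to 0.857 (median -0.664) under rapamycin. In 15 of 16 rapamycin arrays it was below the DMSO median. Its difference was -1.41 ± 0.31 (adjusted p = 0.00109), with run values of -1.95, -0.275, -1.5 and -1.93 in runs A to D. Tcp1, the CCT subunit alpha, scored from -0.805 to 1.72 (median 0.537) in DMSO and from -1.9 to 0.785 (median -0.635) under rapamycin, a difference of -0.96 ± 0.295 (adjusted p = 0.0342).

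The 5 mitochondrial chaperones had a median difference of -0.677, and 1 was called. Hspe1, the cap of the mitochondrial chaperonin, scored from -1.9 to 2.85 (median 0.746) in DMSO and from -2.04 to 0.836 (median -0.712) under rapamycin 100 ng/mL. In 15 of 16 rapamycin arrays it lay below the DMSO median, and the groups overlapped. With -1.6 ± 0.369 (adjusted p = 0.00215) it had the largest fall of the 54 genes, and its 4 run values lay between -2.24 and -1.02. Across the 4 combinations of insulin and glucose its difference ranged from -2.77 (vehicle, 25 mM) to -0.192 (vehicle, 5 mM). Hspd1, the chaperonin ring that Hspe1 caps, had -0.763 ± 0.344 and was not called (adjusted p = 0.225).

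Higher scores under rapamycin 100 ng/mL at 6 h were called for Dnajb9 and Hspbap1. Dnajb9, an ER J-domain partner of Hspa5, scored from -2.13 to 1.47 (median -0.212) in DMSO and from -0.159 to 2.26 (median 1.26) under rapamycin, where all 16 arrays were above the DMSO median. It rose by 1.69 ± 0.484 (adjusted p = 0.0208), with run values between 0.796 and 2.09. The other 7 ER genes were not called, and Hspa5, the ER HSP70, had a difference of -0.732 ± 0.717. Hspbap1, a protein known to bind Hspb1, scored from -1.4 to 0.21 (median -0.514) in DMSO and from -1.27 to 1.27 (median 0.302) under rapamycin. It rose by 0.755 ± 0.22 (adjusted p = 0.0234), with run values between 0.614 and 0.824.

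**Figure D2:**
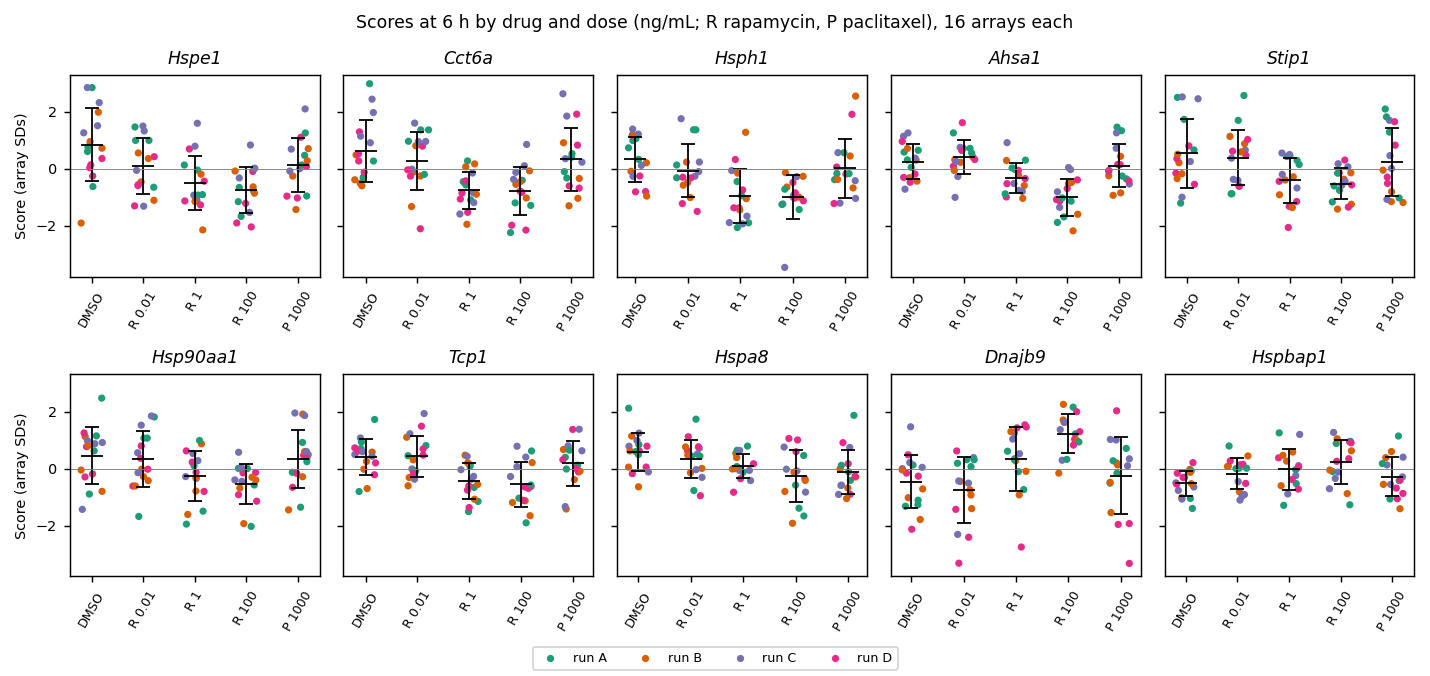
Scores (y axis, array SDs) at 6 h of the 10 genes called for rapamycin 100 ng/mL, in DMSO, in rapamycin at 0.01, 1 and 100 ng/mL and in paclitaxel at 1000 ng/mL. Points are arrays coloured by run, and bars are the mean ± SD of 16 arrays. Hspe1 goes from a mean of 0.851 in DMSO to -0.752 at 100 ng/mL, and the groups overlap for each of the 10 genes.

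Across rapamycin doses at 6 h, 3 of the 54 genes were called lower and 0 higher at 1 ng/mL, against 0.717% of all probes called lower. They were Cct6a at -1.39 ± 0.31 (adjusted p = 0.00472), Hspe1 at -1.35 ± 0.369 (adjusted p = 0.0277) and Hsph1 at -1.29 ± 0.347 (adjusted p = 0.025), all lower in 4 of 4 runs. The 3 genes had also been called at 100 ng/mL, but both comparisons use the same DMSO arrays. Leaving out run C left 0 of these calls, run A left 1, and run B or D left 2, and with run means as the unit 0 were left (smallest adjusted p 0.116). At 0.01 ng/mL 0 genes were called (1 had an unadjusted p under 0.05), and 0% of all probes. Directly compared, 100 and 1 ng/mL differed for 0 of the 54 genes (2 at an unadjusted p under 0.05) and for 0.0518% of all probes. The 95% interval of that difference was -0.979 to 0.477 for Hspe1, and -1.16 to -0.184 for Ahsa1, with an adjusted p of 0.999 for both.

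Paclitaxel gave 0 called genes among the 54 at each of its 3 doses and both hours. At 1000 ng/mL and 6 h, 2 genes had an unadjusted p under 0.05, and 0.294% of all probes were called. The smallest adjusted p of a member was 0.249, for Hspa8 at -0.713 ± 0.239. Hspe1 had a difference of -0.716 with a 95% interval of -1.44 to 0.0117, and Ahsa1 one of -0.134 with an interval of -0.622 to 0.355. At 1000 ng/mL and 24 h, 1.32% of all probes were called, and 7 members had an unadjusted p under 0.05. Dnajb5, a cytosolic HSP40, came nearest, at 1.13 ± 0.342 (adjusted p = 0.0724). Without run B, 2 members were called there. At 1 and 0.01 ng/mL, 0% of probes were called at either hour, with 1 to 3 members at an unadjusted p under 0.05. Dnajb5 is named here after its values were seen. The effect of 1000 ng/mL at 24 h minus that at 6 h was called for 0 members (4 unadjusted) and for 0.00864% of probes.

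Set directly against paclitaxel 1000 ng/mL at 6 h, rapamycin 100 ng/mL gave lower scores of 3 members and higher scores of 2, beside 2.74% of all probes lower and 3.98% higher. Cct6a (-1.11 ± 0.31, adjusted p = 0.0117) and Ahsa1 (-1.11 ± 0.248, adjusted p = 0.000779) were lower, as was Dnaja2, a cytosolic HSP40 (-0.682 ± 0.203, adjusted p = 0.0215). Dnajb9 was higher by 1.48 ± 0.484 (adjusted p = 0.0428). Hspa1a was higher by 1.49 ± 0.426 (adjusted p = 0.0156), from a median of -0.54 under paclitaxel to 0.819 under rapamycin, though 1 of its 4 runs gave -0.0645. The count was 1 without run A or D, 2 without run C and 3 without run B. With run means as the unit 1 member was called, which was none of these 5. Hspe1 was not called between the drugs (-0.887 ± 0.369, adjusted p = 0.149). Doses of the 2 drugs were not matched, and the rapamycin arrays were those also set against DMSO.

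At 24 h rapamycin 100 ng/mL lowered the score of 1 member, Dnajc22, beside 1.4% of all probes called lower. Dnajc22 is a membrane-spanning J-domain protein whose Drosophila counterpart acts in endocytosis. It scored from -0.8 to 1.15 (median 0.232) in the 24 h DMSO arrays and from -1.67 to 0.395 (median -0.797) under rapamycin. In 15 of 16 rapamycin arrays it was below the DMSO median, and 8 lay below every DMSO array. The difference was -1.05 ± 0.223 (adjusted p = 0.00126), lower in 4 of 4 runs. Rapamycin 1 ng/mL gave -1.19 ± 0.223 for Dnajc22 (adjusted p = 0.000364) and -1.24 ± 0.304 for Dnajc3, an ER J-domain protein that inhibits the kinase PERK (adjusted p = 0.0123), beside 1.21% of probes lower. Both doses were set against the same DMSO arrays. For Dnajc3 the runs ranged from -2.75 (B) to -0.024 (A), and it was the call lost without run B, C or D. With run means as the unit neither rapamycin dose had a called member at 24 h (smallest adjusted p 0.123 at 100 ng/mL and 0.347 at 1 ng/mL).

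Against paclitaxel 1000 ng/mL at 24 h Dnajc22 was also the member called, at -1.24 ± 0.223 (adjusted p = 1.23e-05), beside 3.4% of probes lower. This call was kept with run means as the unit (adjusted p = 0.0271). Its rapamycin arrays were those also set against DMSO, so the calls are not independent. Between these drugs 2 of 6 smooth muscle markers were higher, Tagln (4.59 ± 0.527) and Myl9 (3.87 ± 0.428), beside 3.22% of all probes. The 6 lay between -0.247 and 4.59. Their part in the Dnajc22 result was not tested. Rapamycin 0.01 ng/mL gave 0 calls (1 unadjusted) among members and 0% among probes, and 100 against 1 ng/mL gave 0 (3 unadjusted) and 0.0346%. The 8 genes lower at 6 h had differences between -0.545 (Ahsa1) and 0.0722 (Hspa8) at 24 h, and none of the 8 was called. The effect at 24 h minus that at 6 h was called for 0 members (9 at an unadjusted p under 0.05), beside 0.095% of all probes, and was 1.49 ± 0.521 for Hspe1 (adjusted p = 0.412). A change of the rapamycin effect with time was not shown for any member.

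Insulin at 6 h, averaged over all drugs and both glucose levels, gave higher scores of 8 members and lower scores of 0, against 3.59% of all probes called higher. The 8 were 3 of 5 CCT subunits, 2 of 5 mitochondrial chaperones, and 1 gene each of the HSP90 system, the ER and the other J-domain proteins. The median difference was 0.141 over the 54 genes and 0.00791 over all probes, with 40 of 54 above 0. All 8 differences were above 0 in 4 of 4 runs. The count rested on runs A and C: it was 1 without A and 0 without C, and 12 without B and 10 without D. The fit counts the 14 arrays of each stimulus in a run as separate, and with the 4 run means as the unit all 8 calls were lost, with 0 of all probes called and a smallest adjusted p among members of 0.191.

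Hspd1 scored from -2.95 to 1.51 (median -0.376) in the 56 vehicle arrays and from -1.69 to 2.85 (median 0.193) in the 56 insulin arrays. Of the insulin arrays 39 lay above the vehicle median, and 12 above every vehicle array. It rose by 0.815 ± 0.184 (adjusted p = 0.00105), with 1.23, 0.395, 1.44 and 0.192 in runs A to D. Hspe1 scored from -2.15 to 2.85 (median -0.503) in vehicle and from -1.9 to 2.85 (median 0.569) with insulin, and rose by 0.702 ± 0.197 (adjusted p = 0.012). Cct6a rose by 0.551 ± 0.166 (adjusted p = 0.0223), Tcp1 by 0.533 ± 0.158 (adjusted p = 0.0191) and Cct7 by 0.505 ± 0.138 (adjusted p = 0.00947). For Cct7, 46 of 56 insulin arrays lay above the vehicle median of -0.383, although the ranges overlapped almost wholly. Hsp90aa1 rose by 0.564 ± 0.157 (adjusted p = 0.0111), with run values from 0.151 to 1.2. Dnajb11, an ER J-domain protein that binds unfolded substrates with Hspa5, rose by 0.638 ± 0.145 (adjusted p = 0.00116), and Dnajc24, which acts in diphthamide synthesis, by 0.505 ± 0.129 (adjusted p = 0.00516).

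Hsp90aa1, Tcp1, Cct6a and Hspe1 were called lower with rapamycin 100 ng/mL and higher with insulin at 6 h. The insulin comparison includes the rapamycin and DMSO arrays in both of its arms. Whether rapamycin changed the insulin effect was tested directly: the effect under rapamycin 100 ng/mL minus that in DMSO was called for 0 members at 6 h (2 at an unadjusted p under 0.05) and 0 at 24 h (2 unadjusted), beside 0% of all probes at both hours. Intervals were wide, with -2.34 to 0.107 for Cct6a and -1.7 to 1.21 for Hspe1. In the DMSO arrays alone insulin gave 0 called members and 0% of probes at 6 h and at 24 h. The 8 genes had differences there between 0.276 (Hspd1) and 1.11 (Cct6a), all above 0.

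**Figure D3:**
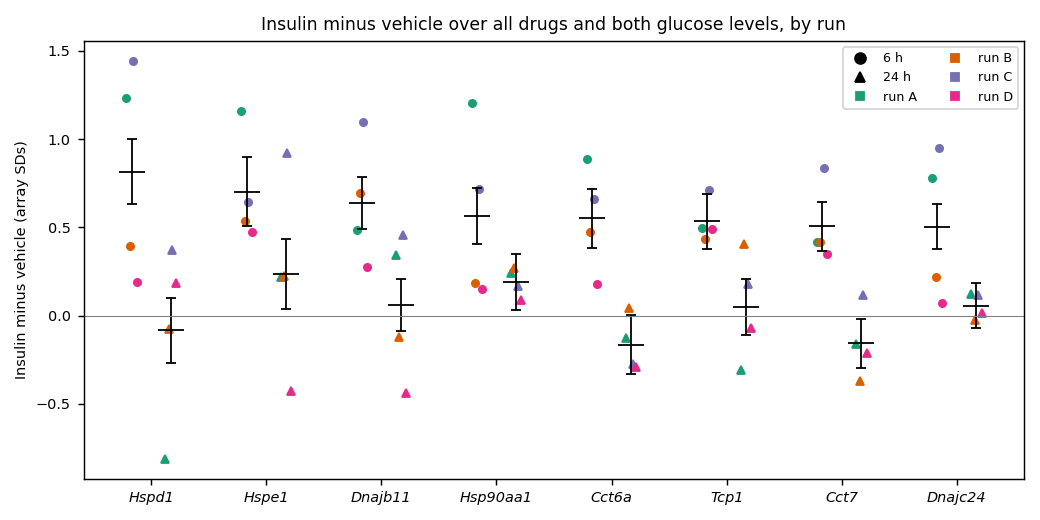
Insulin minus vehicle (y axis, array SDs) over all drugs and both glucose levels, for the 8 genes called at 6 h. Circles are the 4 runs at 6 h and triangles the 4 runs at 24 h, and bars are the fitted difference ± SE. All 6 h run values lie above 0, and those at 24 h lie on both sides of it for 7 of the 8 genes, Hsp90aa1 being the exception.

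At 24 h insulin gave 1 member higher and 1 lower, against 2.57% and 1.42% of all probes. Dnaja1, a cytosolic HSP40, rose by 0.477 ± 0.141 (adjusted p = 0.0289). Bag3, an exchange factor that directs HSP70 clients to autophagy, fell by 0.436 ± 0.137 (adjusted p = 0.0461). Each kept its direction in 4 of 4 runs, and without run A or run C 0 members were called, as with run means as the unit (smallest adjusted p 0.465). The insulin effect at 24 h minus that at 6 h was called for Hspd1 at -0.899 ± 0.26 (adjusted p = 0.0378) and for Cct7 at -0.662 ± 0.195 (adjusted p = 0.0434), a difference called for 2.12% of all probes. This difference between hours was not refitted with run means as the unit or with a run left out. Whether the insulin effect at 6 h differed between runs was also tested; 2.1% of probes and 0 members were called (smallest adjusted p 0.0572).

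Glucose at 24 h, again over all drugs and both stimuli, separated 9 members: 5 were lower at 25 than at 5 mM, against 4.56% of all probes, and 4 were higher, against 5.45%. Of the 5 lower, 4 were ER genes, Hspa5, Dnajb9, Dnajc3 and Dnajb11, and the fifth was Hspa9, the mitochondrial HSP70. The 4 higher were Dnajc22, Bag3, Dnajc10 and Dnaja1. Over the 54 genes the median difference was -0.00328, and over all probes -0.0068. Of the 5 lower, the calls of Hspa9, Dnajb9, Dnajc3 and Dnajb11 were lost without run B and also without run D, and that of Hspa5 was kept (-1.31 without B, -1.76 without D). The count of members was 5 without B, 4 without D, and 12 without A or C. With run means as the unit all 9 calls were lost (smallest adjusted p 0.165).

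Hspa5, the ER HSP70 also called BiP or GRP78, scored from -3.17 to 9.99 (median 0.755) in the 56 arrays at 5 mM and from -4.28 to 1.85 (median -0.335) in the 56 at 25 mM. The fitted difference was -2.33 ± 0.383 (adjusted p = 1.66e-06). The runs did not share it: the difference was 0.0973 in run A, -5.39 in B, 0.012 in C and -4.03 in D. In run B the 14 arrays at 5 mM ranged from -1.87 to 9.99 (median 4.7) and those at 25 mM from -4.28 to 0.467 (median -1.16). In run C the medians were 0.5 and 0.368. Hspa9 followed the same runs, with differences of 0.0523, -2.76, 0.159 and -1.92 and a fitted value of -1.12 ± 0.22 (adjusted p = 7.6e-05). The difference between runs in the glucose effect was called for 4 members, Hspa5 (adjusted p = 5.25e-08), Hspa9 (adjusted p = 2.56e-07), Hspa1a (adjusted p = 0.00517) and Dnajc3 (adjusted p = 0.00839), beside 4.49% of all probes.

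**Figure D4:**
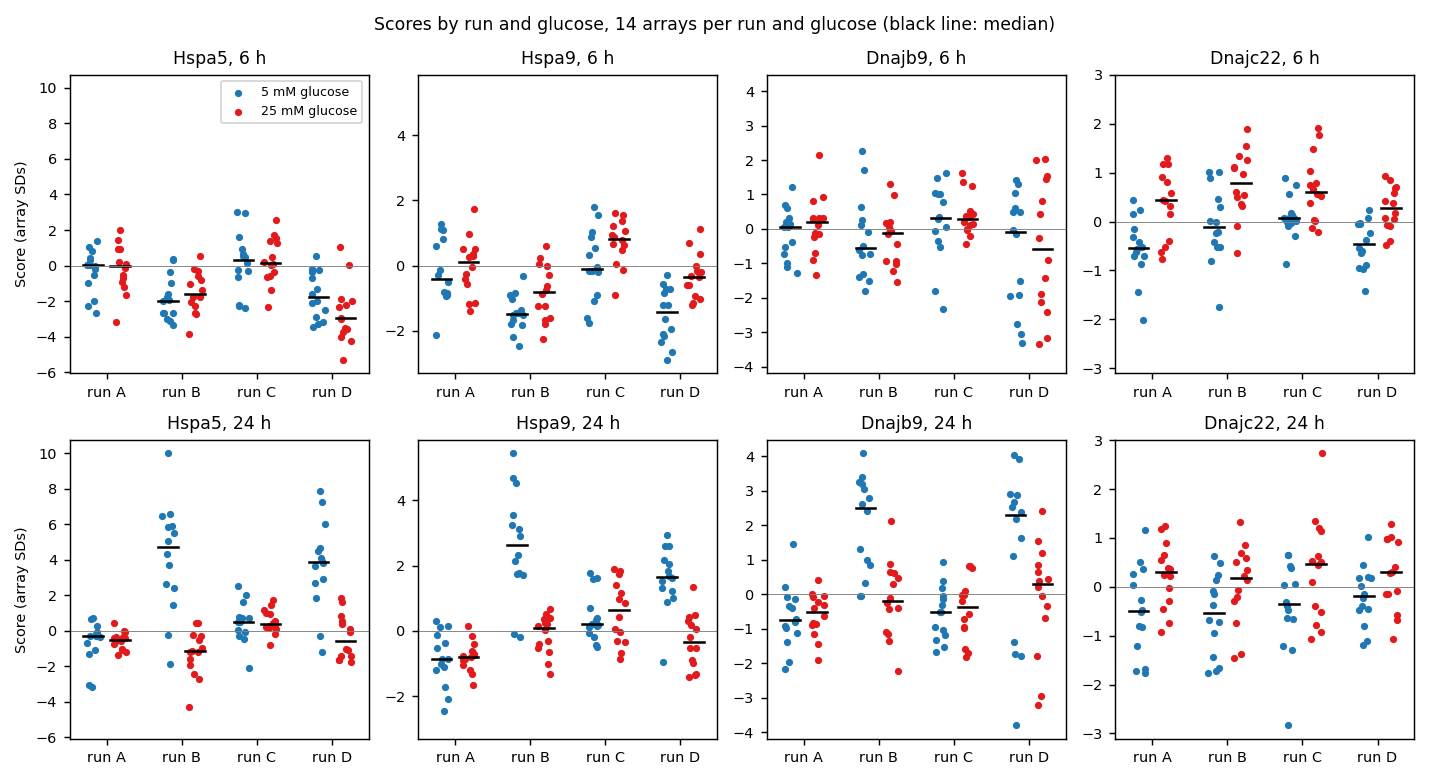
Scores (y axis, array SDs) of Hspa5, Hspa9, Dnajb9 and Dnajc22 by run at 6 h (top) and 24 h (bottom), at 5 mM (blue) and 25 mM glucose (red), with 14 arrays per run and glucose and a black line at the median. Hspa5 reaches 9.99 at 5 mM in run B at 24 h, whereas Dnajc22 is higher at 25 mM in each run at both hours.

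Dnajb9 (-0.831 ± 0.259, adjusted p = 0.0214) and Dnajc3 (-0.667 ± 0.162, adjusted p = 0.00185) also had lower fitted scores at 25 mM, but not in every run. Runs A to D gave 0.0683, -2.16, 0.121 and -1.35 for Dnajb9, and 0.5245, -1.49, -0.426 and -1.28 for Dnajc3. Dnajb11 fell by 0.499 ± 0.145 (adjusted p = 0.0126). It was below 0 in 4 of 4 runs, from -0.8495 in run B to -0.012 in run A. Dnajc10, an ER reductase with a J domain, was higher at 25 mM, by 0.54 ± 0.119 (adjusted p = 0.000458), so the 8 ER genes did not move as 1 group. Bag3 rose by 0.569 ± 0.137 (adjusted p = 0.00159) and Dnaja1 by 0.529 ± 0.141 (adjusted p = 0.00522). In the DMSO arrays alone 0 members were called at 24 h, with 0.285% of all probes, and Hspa5 had -3.56 ± 1.01 (adjusted p = 0.0749).

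Dnajc22 differed with glucose at both hours. At 6 h it scored from -2.01 to 1.01 (median -0.19) at 5 mM and from -0.775 to 1.91 (median 0.535) at 25 mM, and 48 of 56 arrays at 25 mM lay above the 5 mM median. It rose by 0.76 ± 0.119 (adjusted p = 1.79e-06), with run values of 0.894, 0.834, 0.582 and 0.733. With run means as the unit this call was kept (adjusted p = 0.0155). It was the single member called at 6 h, beside 1.57% of all probes called higher, and 2 members were called without run A. At 24 h it rose by 0.635 ± 0.119 (adjusted p = 3.04e-05), with run values between 0.443 and 0.753. In the DMSO arrays alone at 6 h 0 members were called, and 0.0346% of probes. At 6 h a difference between runs in the glucose effect was called for 0 members and 0% of probes. For the effect of rapamycin 100 ng/mL, tested on 32 arrays, it was also called for 0 members and 0% of probes. A difference that was not called does not show that the runs agreed.

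The glucose effect at 24 h minus that at 6 h was called for 3 members, against 2.4% of all probes. It was -2.24 ± 0.542 for Hspa5 (adjusted p = 0.00655), -1.79 ± 0.311 for Hspa9 (adjusted p = 5.34e-05) and 0.746 ± 0.199 for Dnaja1 (adjusted p = 0.0174). For Dnajc22 it was -0.126 ± 0.169 (adjusted p = 0.806). These differences between hours were not refitted with run means as the unit or with a run left out. Runs did not share the 24 h glucose effect of Hspa5, with 0.0973 in A, -5.39 in B, 0.012 in C and -4.03 in D. For Hspa9 the 24 h values were 0.0523, -2.76, 0.159 and -1.92 in runs A to D. With DMSO alone, 24 h against 6 h gave 2 higher members and 0 lower, against 4.31% of all probes higher. Dnaja2 rose by 0.88 ± 0.203 (adjusted p = 0.00175), and 10 of its 16 arrays at 24 h lay above all 16 at 6 h. Dnajc3 rose by 1.1 ± 0.304 (adjusted p = 0.0111). This count was 5 without run B, 3 without A, and 1 without C or D, and 0 with run means as the unit (smallest adjusted p 0.187).

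**Figure D5:**
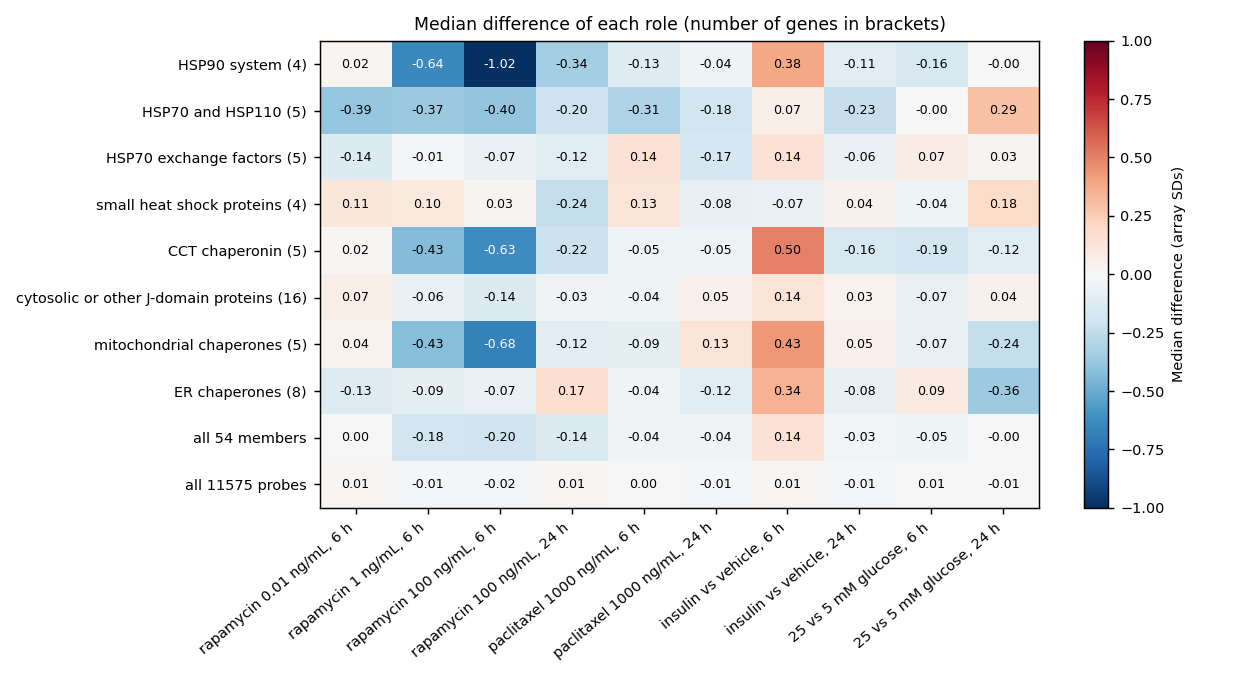
Median difference (colour and printed value, array SDs) of 8 roles of chaperone gene (Hspb9 and Hspbap1 left out), of all 54 genes and of all 11575 probes, in 10 comparisons, with colours ending at 1 SD either way. The HSP90 system has the lowest median under rapamycin 100 ng/mL at 6 h (-1.02), and CCT the highest with insulin at 6 h (0.505).

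Across arrays, deviations from group means were compared between members as a description, since all genes share the array, its scaling and the removed run components. Over 1431 pairs the median correlation was 0.00799, with a range from -0.516 to 0.663. The highest were Cct7 with Hspd1 (0.663) and Hspa9 with Hspa5 (0.621), and Tcp1 with Cct6a reached 0.483. Hspd1 and Hspe1, the neighbouring genes whose promoter windows overlap, gave Pearson's r = 0.229 (permutation p = 0.00061) and Spearman's rho = 0.21 (permutation p = 0.00168) over 224 arrays, as the single pair tested. The permutation over 224 arrays shuffled all values freely, although the 4 deviations of each group sum to 0, so its p may be too small. Without the 2 arrays farthest from the Hspd1 median r was 0.232. Within runs A to D it was 0.365, 0.0928, 0.2 and 0.144, and the permutation p was 0.00586 in A and 0.496, 0.14 and 0.29 in the others. All 4 were above 0, and a run has 56 arrays in place of 224.

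Other genes of protein folding were taken from a list of 35 co-chaperones, prefoldins and proteases, of which 18 were measured. With rapamycin 100 ng/mL at 6 h, 2 were lower and 1 higher, beside 2.18% and 2.9% of all probes. Ppid, an HSP90 co-chaperone, fell by 0.964 ± 0.287 (adjusted p = 0.0274) and Serpinh1, the ER collagen chaperone HSP47, by 0.924 ± 0.218 (adjusted p = 0.00294). Pfdn5, a prefoldin subunit that hands actin and tubulin to CCT, rose by 0.799 ± 0.246 (adjusted p = 0.0345). Insulin at 6 h gave 1 higher, Serpinh1 at 0.356 ± 0.117, beside 3.59% of all probes higher. Glucose at 24 h gave 2 lower, beside 4.56% of all probes lower. They were Hsp90b1, the HSP90 of the ER (-1.77 ± 0.241, adjusted p = 7.12e-09), and Lonp1, a mitochondrial protease (-1.03 ± 0.186, adjusted p = 1.43e-05). With run means as the unit, 0 of all probes were called for insulin at 6 h or for glucose at 24 h. The insulin call of Serpinh1 and the glucose calls of Hsp90b1 and Lonp1 were therefore lost. The rapamycin calls of Ppid, Serpinh1 and Pfdn5 were not examined in that setting. Other comparisons also had calls on this list. Paclitaxel 1000 ng/mL gave 1 lower at 6 h and 1 at 24 h, beside 0.13% and 0.838% of all probes. In DMSO, 24 h against 6 h gave 4 higher and 1 lower, beside 4.31% and 2.93%.

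Of 8 smooth muscle markers 6 were measured, and of 7 leukocyte, 7 endothelial and 5 adventitial fibroblast markers 4, 5 and 3. In the 6 h rapamycin 100 ng/mL comparison 0 of these were called, with smooth muscle differences between -0.172 and 0.123 and endothelial ones between -0.672 and 0.0183. Leukocyte differences lay between -0.335 and 0.39 and fibroblast ones between -0.247 and 0.185. Beside the insulin result at 6 h, Lmod1 of the smooth muscle list was lower (-0.588 ± 0.196, 1 of 6) and Cd14 of the leukocyte list was lower (-0.46 ± 0.15, 1 of 4). Beside the glucose result at 24 h, Cnn1 was higher (0.488 ± 0.164, 1 of 6) and so was Cd14 (0.516 ± 0.15, 1 of 4). Of all probes 3.48% were called lower with insulin at 6 h and 5.45% higher with glucose at 24 h. These insulin and glucose calls of markers were lost with run means as the unit, where 0 of all probes were called. With paclitaxel 1000 ng/mL against DMSO at 24 h, where no chaperone gene was called, Myl9 (-4.58 ± 0.428, adjusted p = 5.35e-17) and Tagln (-4.3 ± 0.527, adjusted p = 1.47e-10) were lower, and the 6 smooth muscle markers lay between -4.58 and -0.0853. Their part in these results was not tested.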

How the data were processed

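Cyanine-5 RNA of the cells was hybridised beside Cyanine-3 RNA of pooled newborn pups, per the labels. The authors deposited 1 table of standardized scores. Per the series' design text, they normalized by loess, filtered dim features, imputed missing values from neighbours, removed principal components linked to the 4 runs, and standardized. Removing run components can lower the spread between runs and so the standard errors, and score units are not fold changes. The log base is not given in the sources used here.

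Every probe was fitted in limma 3.58.1 (R 4.3.3) with a mean for each of 56 groups and a block for run, giving 165 residual degrees of freedom and a median residual SD of 0.811. P-values are two-sided and adjusted by Benjamini-Hochberg over 11575 probes within each comparison. Log ratios had been planned for, and the same model was used on scores. The fit was tested on simulated data with errors drawn independently for each array, so that test cannot address errors shared within a run. Array number limits precision. Columns with no sample numbered 0. Members, gene lists and comparisons were chosen with earlier results of these data known. Members named are all those called, up to 10 in each direction, and a list of central chaperones, with others chosen after their values were seen. Python 3.11.15 drew 100000 permutations.

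On dish size, serum and hours in low serum the labels do not match the design text. The 54 symbols all matched the RefSeq gene table. Alternatives were no block, run by hour as block, compared groups alone, run means as the unit, quantile normalization, the mean of a gene's probes, and each run left out.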

Additional observations from a re-analysis of the deposited data

Results flagged for a closer look

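The 4 run values of each of 44 called member results were searched for a run that stood apart, and 2 had one, near the 1 in 20 that chance gives. Ahsa1, for rapamycin 100 against paclitaxel 1000 ng/mL at 6 h, had -1.982 in run A, with the other runs between -0.885 and -0.771. Cct7, for insulin at 6 h, had 0.838 in run C, with the other runs between 0.348 and 0.42.

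Runs differed in the effect of glucose at 24 h for 4 members by an F test in limma, with adjusted p of 5.25e-08 for Hspa5, 2.56e-07 for Hspa9, 0.00517 for Hspa1a and 0.00839 for Dnajc3. For Hspa1a the runs gave -0.538, 1.16, -0.235 and 1.69. The glucose effect at 24 h also differed from that at 6 h, by -2.239 for Hspa5, -1.795 for Hspa9 and 0.7457 for Dnaja1. The insulin effect at 24 h differed from that at 6 h by -0.8985 for Hspd1 and -0.6623 for Cct7. These tests between runs and between hours were added after the data were seen. Those between hours were not refitted with run means as the unit or with a run left out.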

How the results depend on the processing

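Of 482 alternative values for the 44 called member results, 360 kept the call, 122 lost it and 0 reversed. For many of these a reversal was not possible. Each group had 1 array in each run, so some alternatives left the difference unchanged and altered only its standard error. These were no block, run by hour as the block, the compared groups alone and run means as the unit. Without the replicate block 44 of 44 calls were kept, and counts stayed at 10 members for rapamycin 100 ng/mL and 8 for insulin at 6 h. Deviations of same-run arrays correlated at 0.021, but the authors had removed components linked to the runs, so this value does not show whether runs pair the arrays. Run by hour as the block kept 42 of 42 calls, quantile normalization 43 of 44 and the compared groups alone 39 of 44. The mean of a gene's probes kept 44 of 44, but of the called genes only Ahsa1 had more than 1 probe. For the other called genes this setting used the same scores. Leaving out 1 of the near-identical arrays (added after the data were seen) also kept 44 of 44. Among comparisons with calls, only those of insulin and glucose at 6 h include that array. The median of all probes moved by under 0.1 with quantile normalization. Run by hour as a block could not be fitted for 24 against 6 h in DMSO.

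With run means as the unit, which leaves 4 values per probe, 5 of 44 calls were kept. Counts of members were then 3 in place of 10 for rapamycin 100 ng/mL at 6 h, 0 in place of 3 for 1 ng/mL, 1 (none of the 5) in place of 5 for rapamycin against paclitaxel, and 0 in place of 8 for insulin at 6 h. At 24 h they were 0 for rapamycin 100 and 1 ng/mL, for insulin and for glucose, and 0 for 24 against 6 h in DMSO. Glucose at 6 h gave 2 in place of 1 under run by hour, the compared groups alone and quantile normalization. The compared groups alone gave 1 in place of 2 for rapamycin 1 ng/mL at 24 h and for 24 against 6 h in DMSO, and quantile normalization 1 in place of 2 for insulin at 24 h. In DMSO arrays alone, an alternative added after the data were seen, insulin and glucose gave 0 at both hours. The correlation of Hspd1 and Hspe1 was 0.0928, 0.2 and 0.144 within runs B, C and D.

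Leaving out 1 run at a time kept 22 (A), 30 (B), 21 (C) and 26 (D) of the 44 calls. Counts then ran from 3 to 5 for rapamycin 100 ng/mL at 6 h, 0 to 2 for 1 ng/mL, 1 to 3 for rapamycin against paclitaxel, 0 to 12 for insulin and 1 to 2 for glucose. At 24 h they ran from 1 to 2 for rapamycin 100 and for 1 ng/mL, 0 to 2 for paclitaxel 1000 ng/mL, 1 to 2 for rapamycin against paclitaxel, 0 to 4 for insulin, 4 to 12 for glucose, and 1 to 5 for 24 against 6 h in DMSO.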
